A study of Homo sapiens with 6 samples.

Results

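The 41 genes described here encode ribosome biogenesis and nucleolar factors, the proteins that transcribe, modify, cut and fold ribosomal RNA (rRNA) before ribosomal subunits leave the nucleus. They were picked by gene symbol. The rule reads measured counts only to choose among rows that share a symbol, but it was drawn up with earlier results of these data known. All 41 were found among the 58825 genes of the deposited table. RNA was measured in PANC-1, an established human pancreatic ductal carcinoma cell line grown in serum-supplemented medium. The 2 groups, of 3 libraries each, were cells exposed to 8 µM CMR for 48 h, and control cells without it. The labels give the agent only as CMR, and state neither what the control dishes received nor whether the replicates were grown separately, so p-values here reflect spread among libraries that may be technical only. The comparison asks which genes differed in RNA level between CMR-treated and control cells.

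Ribosome production starts in the nucleolus, where RNA polymerase I (Pol I) transcribes a long rRNA precursor. Small nucleolar ribonucleoproteins (snoRNPs) mark chosen bases: box C/D particles guide ribose methylation and box H/ACA particles guide the change of uridine to pseudouridine. A large assembly called the small-subunit processome folds and cuts the small-subunit rRNA, and other factors build the large subunit. In cancer cells, genes of this pathway are well-known targets of MYC, which binds DNA with its partner MAX at the E-box sequence CACGTG.

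Stretches around that E-box are shown because they are what the start regions of the listed genes share most often among the 3 motifs searched. RefSeq windows of 300 bases (build GRCh38.p14, from 250 bases before to 50 after each annotated gene start) were found for 36 of the 41 genes. NOP58, NOLC1, RRP1B, RRP12 and BOP1 had none in the table used. Both strands were searched, and CACGTG reads the same on both. It occurred in 16 of 36 genes (44.4%), against 7.26% of all 35116 windows and 12.49% of the 10901 protein-coding genes that were tested for expression and had a window. In 15 of these 16 genes an E-box lay between 20 bases before and 40 bases after the start. Some genes have more than 1 window. Counted per window, as the 7.26% is, 16 of the 40 windows of the 36 genes held the E-box. Each stretch below runs 5′ to 3′ on the strand of its gene, and the capitals mark the E-box.
GAR1, chr4:109815781-109815810, plus strand, higher with CMR: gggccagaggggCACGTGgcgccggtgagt
GNL3, chr3:52686026-52686055, plus strand, higher with CMR: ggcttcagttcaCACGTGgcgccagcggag
PES1, chr22:30591880-30591909, minus strand, higher with CMR: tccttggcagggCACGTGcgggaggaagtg
WDR43, chr2:28894658-28894687, plus strand, higher with CMR: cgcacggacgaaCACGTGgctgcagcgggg
UTP14A, chrX:129905914-129905940, plus strand, higher with CMR: accttgggcCACGTGgaaaccaggggc
UTP20, chr12:101280083-101280112, plus strand, lower with CMR: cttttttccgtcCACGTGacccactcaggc
UTP4, chr16:69132621-69132650, plus strand, lower with CMR: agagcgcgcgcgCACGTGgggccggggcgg
FBL, chr19:39846356-39846385, minus strand, not called: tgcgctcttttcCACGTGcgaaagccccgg
RefSeq and the deposited table place some starts differently: the GAR1, GNL3, PES1 and UTP4 stretches lie inside those genes as the table spans them. The E-box stood in genes of every outcome described below: 9 of the 18 matched genes that were higher, 2 of the 6 that were lower and 5 of the 12 that were not called. Of the other motifs, CCGGAAG, the core bound by ETS factors, was in 13 of 36 genes (36.1%) and 14 of their 40 windows. These compare with 10.26% of all windows and 21.35% of tested protein-coding genes. GCATGCG, part of the NRF1 motif, was in 4 of 36 genes (11.1%) and 4 of 40 windows, against 3.91% of all windows and 7.46% of tested protein-coding genes. These matches are letters in a window, and binding was not measured.

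The libraries held 66460535 to 70129221 counts in the CMR group and 51147268 to 63811430 counts in the control group. Thinning all libraries to the smallest total changed none of the calls on the 41 genes. Pearson correlations between libraries (log2 CPM, counts scaled to library size, across genes) were 0.966 to 0.971 within groups and 0.914 to 0.939 between groups, and CMR replicate 3 was the CMR library farthest from the controls. Keratins of ductal epithelium were detected in both groups. KRT8 averaged 45.5 FPKM in CMR cells against 172.5 FPKM in control cells, and KRT19 averaged 49.5 against 262 FPKM. KRT7, KRT8, KRT18 and KRT19 were called lower and EPCAM was not called. The KRT7 and KRT18 calls were lost in 5 and 4 of the fits that left out 1 library. KRT7 was also low in level, at 0.66 FPKM in CMR cells against 1.18 FPKM in control cells. The 5 adipocyte markers, examined because the labels' protocol text names an adipose source, had 0 to 27 counts per library. Blood and endothelial markers had 0 to 58 counts per library. Of the acinar and islet markers, PRSS1 had 17, 15 and 14 counts in the CMR libraries against 0 in each control library, and CPA1, INS and GCG had 0. In bulk RNA, fewer cells with a transcript and less of it per cell cannot be told apart, and whether the keratin difference has a part in the results below was not tested.

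With CMR, more of the 41 genes were higher than lower, and the largest differences were increases. Of the 41, 21 were called higher, 7 lower and 13 not called (edgeR quasi-likelihood test, adjusted p under 0.05 with Benjamini-Hochberg adjustment over 19200 genes). The called share was 68.3%, against a background of 38.6% over all genes tested, and 51.2% were higher against 20.5%. All but RRP8 averaged 5 FPKM or more, and among the 6477 genes expressed that well, 56.7% were called, 32.5% higher and 24.1% lower. The median log2 fold change of the 41 was 0.32, against 0.07 for those well-expressed genes and -0.01 for all genes tested. The libraries of the groups did not overlap for 34 of the 41 genes, against 53.9% of all genes and 69.1% of well-expressed genes. The division depends on scaling: with upper-quartile factors, which lower the fold changes of all genes by a median of 0.13 on the log2 scale, 13 were higher and 11 lower, and with library totals alone 16 were higher and 9 lower. The summed share of these genes in all counts was 1.14, 1.20 and 1.25% in the CMR libraries and 1.16, 1.14 and 1.16% in the control libraries. FBL, NPM1 and NCL weigh most in this sum, with mean counts of 180456, 137495 and 85207 per library, and none of them was called higher.

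**Figure D1:**
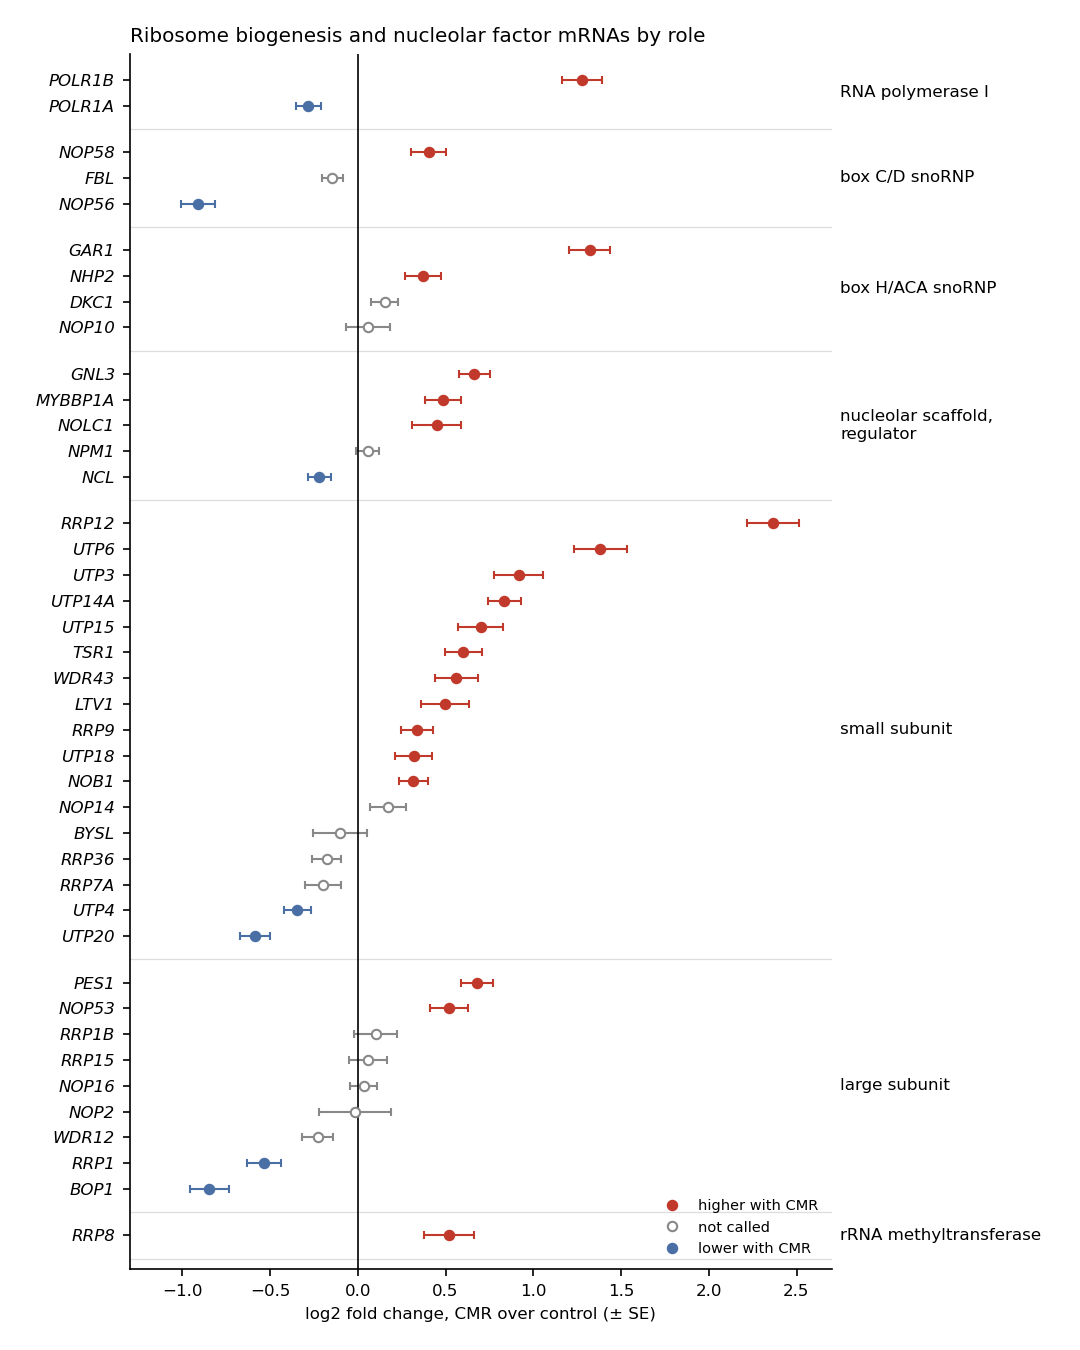
The plot gives the log2 fold change (CMR over control, horizontal axis) of each of the 41 genes with its SE, grouped by role down the page; filled red points were called higher, filled blue points lower, and open points not called. RRP12 stands alone at 2.37, the small-subunit genes mostly lie right of 0, and the large-subunit genes lie on both sides.

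Only 4 of the 41 genes changed by at least 2-fold, all upward (RRP12, UTP6, GAR1 and POLR1B), against 18.4% of all genes called with such a change in either direction and 9.87% upward. CMR replicate 3 had the highest of the CMR values for 18 of the 21 genes called higher. Without that library the median of the 41 was 0.23, and 5 calls were lost (NHP2, NOLC1, UTP18, LTV1 and RRP8). In all, 17 calls held under all 16 alternative settings: POLR1B, GAR1, GNL3, MYBBP1A, UTP3, UTP6, UTP14A, UTP15, WDR43, RRP12, TSR1, NOP53 and PES1 as higher, and NOP56, UTP20, RRP1 and BOP1 as lower. The other 11 calls were each lost without at least 1 library. Levels per library are given below as CPM with TMM factors, and levels of different genes are compared only in FPKM, which is per length.

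The large catalytic subunits of Pol I moved in opposite directions. POLR1B (ENSG00000125630, chromosome 2:112541915-112577150, plus strand, GRCh38), which forms part of the active site, had 139, 149 and 182 CPM in CMR cells against 63.3, 65.1 and 65.8 CPM in control cells. Every CMR library lay above every control library, and the log2 fold change was 1.28 ± 0.12 (SE; 2.42-fold, edgeR adjusted p = 0.000301). POLR1A (ENSG00000068654, chromosome 2:86020216-86106155, minus strand), the largest subunit, had 148, 153 and 157 CPM in CMR cells against 181, 186 and 191 CPM in control cells. The groups again did not overlap, and CMR was lower, with a log2 difference of -0.28 ± 0.07 (edgeR adjusted p = 0.0184). That call is the less firm of the pair: the adjusted p was 0.0553 without CMR replicate 2, 0.0553 without control replicate 1, 0.0729 without control replicate 2 and 0.0748 without control replicate 3.

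The box C/D particle gave 1 gene higher, 1 lower and 1 not called. That is 66.7% called, against 38.6% of all genes tested and 56.7% of well-expressed genes. NOP56 (ENSG00000101361, chromosome 20:2652593-2658393, plus strand), a core protein that holds the guide RNA, had 171, 178 and 144 CPM in CMR cells against 299, 315 and 311 CPM in control cells. It was the largest fall among the 41 genes, at -0.91 ± 0.10 (SE; 1.88-fold lower, edgeR adjusted p = 0.000571), and no CMR library came near the controls. NOP58, its close relative in the same particle, had 298, 352 and 375 CPM in CMR cells against 248, 258 and 267 CPM in control cells. It was higher by 0.41 ± 0.10 (edgeR adjusted p = 0.0162), a call that was lost with upper-quartile factors (0.0539) and without CMR replicate 2 (0.0548), control replicate 1 (0.0656) or control replicate 2 (0.0564). FBL, the fibrillarin methyltransferase and the most abundant of the 41 genes, averaged 1066 FPKM in CMR cells and 1244 FPKM in control cells. It had 2702, 2868 and 2798 CPM in CMR cells against 3221, 3029 and 3000.1 CPM in control cells. Its log2 fold change of -0.14 ± 0.06 was not called (edgeR adjusted p = 0.105), although the CMR libraries were all below the controls and it was called lower with library totals alone (0.0245), with upper-quartile factors (0.00924) and after a filter at a mean of 1 FPKM (0.0263).

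Of the 4 box H/ACA proteins, 2 were higher and none was lower. That is 50.0% called, against 38.6% of all genes tested and 56.7% of well-expressed genes. GAR1 (ENSG00000109534, chromosome 4:109815510-109824740, plus strand), which joins the particle as it matures, had 97.4, 107 and 124 CPM in CMR cells against 42.7, 46.5 and 42.3 CPM in control cells. The lowest CMR library was above the highest control library by more than the whole control spread, and the log2 fold change was 1.32 ± 0.12 (SE, edgeR adjusted p = 0.000269). NHP2, a core RNA-binding protein, averaged 109 ± 9.42 CPM in CMR cells and 84.1 ± 6.68 CPM in control cells (SD, n = 3 each; log2 fold change 0.37, edgeR adjusted p = 0.0268), a call lost in 4 of 6 fits that left out 1 library and with upper-quartile factors or library totals; RMND5B, which overlaps it, has 34.5% of its counts. DKC1, the pseudouridine synthase dyskerin, averaged 337 ± 13.3 CPM in CMR cells and 303 ± 17.8 CPM in control cells (SD, n = 3 each) and was not called (edgeR adjusted p = 0.165). NOP10, the smallest of the core proteins, had 105, 80.4 and 79.4 CPM in CMR cells against 86.2, 86.3 and 82.2 CPM in control cells. Its groups overlapped, and the 95% interval of the log2 fold change ran from -0.24 to 0.35.

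The nucleolar scaffolds and regulators held 3 genes that were higher, 1 lower and 1 not called. That is 80.0% called, against 38.6% of all genes tested and 56.7% of well-expressed genes. GNL3 (nucleostemin), a GTP-binding protein of proliferating and stem cells, had 253, 287 and 303 CPM in CMR cells against 173, 180.5 and 178 CPM in control cells. Its groups were well apart, with a log2 fold change of 0.66 ± 0.09 (SE; 1.58-fold, edgeR adjusted p = 0.0013); PBRM1, which overlaps it, has counts equal to 59.1% of those of GNL3, so some reads could belong to either. MYBBP1A, a MYB-binding nucleolar protein, averaged 99.8 ± 6.82 CPM in CMR cells and 71.3 ± 6.89 CPM in control cells (SD, n = 3 each; log2 fold change 0.49, edgeR adjusted p = 0.00971). NOLC1, which binds snoRNPs in the nucleolus, was higher by 0.45 ± 0.14 (edgeR adjusted p = 0.0393), a call lost in 4 of 6 fits that left out 1 library. NCL (nucleolin), a major RNA-binding protein of the nucleolus, had 1214, 1336 and 1297 CPM in CMR cells against 1479, 1495 and 1503 CPM in control cells. It was lower, with a log2 difference of -0.22 ± 0.06 (edgeR adjusted p = 0.0319), with DESeq2 giving 0.0522, and values of 0.0965, 0.109 and 0.101 without control replicates 1, 2 and 3. NPM1 (nucleophosmin), the histone and ribosome chaperone of the granular layer, had 2157, 2250.4 and 2390.1 CPM in CMR cells against 2216, 2130.5 and 2194 CPM in control cells. The NPM1 groups overlapped, and the 95% interval of its log2 fold change was -0.10 to 0.21 (edgeR adjusted p = 0.539); the pseudogene NPM1P27 has 3.92% of its counts.

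The small-subunit factors were the group with the most genes higher: of 17, 11 were called higher, 2 lower and 4 not called, with a median log2 fold change of 0.34. The called share was 76.5%, against 38.6% of all genes tested and 56.7% of well-expressed genes. The higher share was 64.7%, against 20.5% and 32.5%. The groups did not overlap for 15 of the 17, against 53.9% of all genes and 69.1% of well-expressed genes. With upper-quartile factors 7 were higher and 4 lower, and with library totals alone 8 were higher and 2 lower. RRP12 (ENSG00000052749, chromosome 10:97356358-97426076, minus strand), a HEAT-repeat protein of late small-subunit assembly and export, had 396, 429.9 and 552 CPM in CMR cells against 99.5, 83.9 and 83.6 CPM in control cells. It was the largest change of the 41, at 2.37 ± 0.15 (SE; 5.16-fold, edgeR adjusted p = 8.67e-05), and it stayed between 2.21 and 2.46 when any 1 library was left out. In length-scaled terms RRP12 averaged 43.9 ± 7.15 FPKM in CMR cells and 9.0 ± 0.926 FPKM in control cells (SD, n = 3 each).

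Within the processome, most of the UTP proteins were higher. UTP6 (ENSG00000108651, chromosome 17:31860904-31901708, minus strand), a subunit of the UtpB complex in yeast, had 275, 319 and 410.2 CPM in CMR cells against 120.1, 132 and 133 CPM in control cells. All CMR values exceeded all control values, with CMR replicate 3 the highest, and the log2 fold change was 1.38 ± 0.15 (SE; 2.61-fold, edgeR adjusted p = 0.000577). UTP3, a processome protein of the Sas10 family, had 74.1, 79.6 and 98.0 CPM in CMR cells against 40.2, 43.3 and 49.7 CPM in control cells, 1.89-fold higher (0.92 ± 0.14 on the log2 scale, edgeR adjusted p = 0.00221). UTP14A, which in yeast activates a helicase that dismantles the processome, had 251, 272 and 308 CPM in CMR cells against 155, 156 and 155 CPM in control cells, 1.78-fold higher (0.84 ± 0.09 on the log2 scale, edgeR adjusted p = 0.000639). The control values of UTP14A were nearly identical, and the CMR values were all well above them. UTP15, of the early-binding UtpA complex, had 81.5, 103 and 112 CPM in CMR cells against 58.3, 61.2 and 62.8 CPM in control cells, 1.63-fold higher (0.70 ± 0.13 on the log2 scale, edgeR adjusted p = 0.00491).

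The proteins of UtpA did not move together. WDR43, another UtpA protein, averaged 317 ± 51.7 CPM in CMR cells and 215 ± 1.77 CPM in control cells (SD, n = 3 each; log2 fold change 0.56, edgeR adjusted p = 0.0101), higher as UTP15 was. UTP4 (cirhin), of the same complex, had 81.0, 82.4 and 79.1 CPM in CMR cells against 105, 103 and 99.96 CPM in control cells. It was lower, with log2 fold change -0.34 ± 0.08 (SE; 1.27-fold lower, edgeR adjusted p = 0.0109, but 0.0551 without control replicate 1), and its overlapping neighbours CHTF8 and SNTB2 have counts equal to 26.4% and 43.1% of its own. UTP20, a very large HEAT-repeat protein of the processome, had 112, 128 and 124 CPM in CMR cells against 176, 184 and 186 CPM in control cells. It fell by 0.58 ± 0.08 on the log2 scale (SE, edgeR adjusted p = 0.00175), opposite to most of its group. UTP18, of UtpB, was called higher by 0.32 ± 0.10 (edgeR adjusted p = 0.0464), the weakest of the calls, lost under 12 of the 16 alternatives.

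Of the 8 remaining small-subunit factors, 4 were called higher and 4 were not called. TSR1, a GTPase-like protein that sits on late precursors, averaged 288 ± 37.5 CPM in CMR cells and 189.9 ± 4.55 CPM in control cells (SD, n = 3 each; log2 fold change 0.60, edgeR adjusted p = 0.00397). LTV1, a late assembly factor, was higher by 0.50, NOB1, the endonuclease of the last cut, by 0.32, and RRP9, a protein bound to the processome snoRNA, by 0.34 on the log2 scale (edgeR adjusted p = 0.0251, 0.0215 and 0.0251). Each of these 3 lost its call in several fits without 1 library. The 4 not called were RRP7A (-0.20), RRP36 (-0.18), NOP14 (0.17) and BYSL. RRP36 was called lower with both limma settings and with upper-quartile factors, and RRP7A with upper-quartile factors. BYSL (bystin), a precursor-bound assembly protein, was the nearest to no change in the group, with 33.5, 39.2 and 40.8 CPM in CMR cells against 36.8, 48.6 and 36.2 CPM in control cells. The BYSL groups overlapped, and its interval of -0.46 to 0.26 covers changes in either direction.

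**Figure D2:**
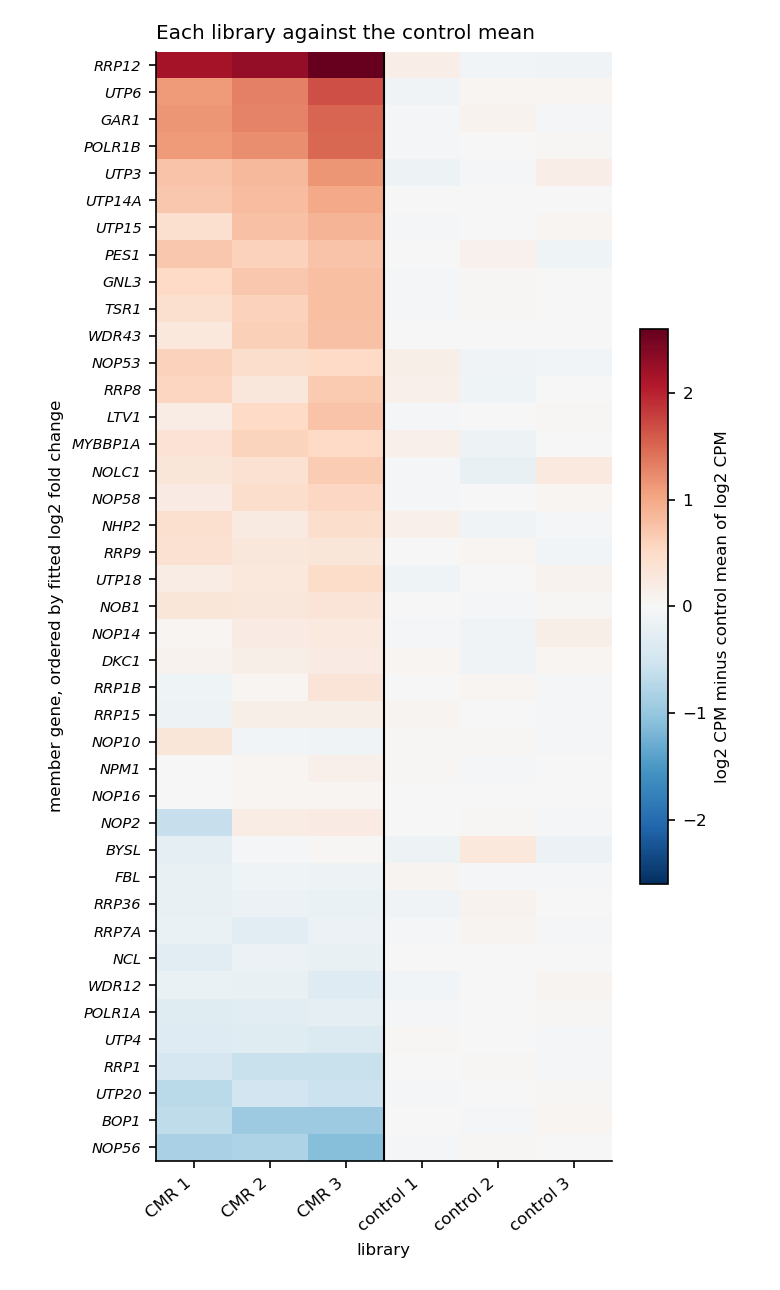
Each row is 1 of the 41 genes and each column 1 library, CMR replicates left of the controls; colour gives the log2 CPM of the gene minus its mean over the control libraries. The RRP12 row is the most strongly raised in the CMR columns, and 18 of the 21 genes called higher reach their highest CMR value in replicate 3.

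The large-subunit factors picked here showed no common direction. Of these 9, 2 were higher, 2 lower and 5 not called. That is 44.4% called and 22.2% higher. All genes tested had 38.6% and 20.5%, and well-expressed genes 56.7% and 32.5%. The median log2 fold change of the 9 was 0.03, which turned to -0.10 with upper-quartile factors and -0.04 with library totals alone. The wider list of 53 other large-subunit factors, described below, leaned higher: 32 were higher and 3 lower, with a median of 0.48. PES1, BOP1 and WDR12 form a stable complex needed for the large-subunit rRNA, and they did not move alike. PES1 (ENSG00000100029, chromosome 22:30576625-30607083, minus strand) had 176, 164 and 180.1 CPM in CMR cells against 108, 116 and 101 CPM in control cells. It was higher in every CMR library, by a log2 fold change of 0.68 ± 0.09 (SE; 1.60-fold, edgeR adjusted p = 0.00117). BOP1 (ENSG00000261236) had 51.3, 42.2 and 42.2 CPM in CMR cells against 81.2, 78.9 and 83.6 CPM in control cells. It was lower in every CMR library, with a log2 fold change of -0.84 ± 0.11 (SE; 1.80-fold lower, edgeR adjusted p = 0.00113). WDR12 averaged 86.0 ± 5.03 CPM in CMR cells and 101 ± 5.2 CPM in control cells (SD, n = 3 each), with a log2 fold change of -0.23 that was not called (edgeR adjusted p = 0.0818). Its CMR libraries were nevertheless all below the controls. WDR12 was called lower with library totals alone, upper-quartile factors, both limma settings and after the filter at a mean of 1 FPKM.

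The paralogs RRP1 and RRP1B, which lie on the same chromosome and take part in large-subunit processing, also differed. RRP1 (ENSG00000160214, chromosome 21:43789513-43805293, plus strand) had 37.5, 34.2 and 33.9 CPM in CMR cells against 51.6, 52.1 and 49.3 CPM in control cells, and was lower, with a log2 difference of -0.53 ± 0.10 (SE; 1.45-fold lower, edgeR adjusted p = 0.00436). RRP1B (ENSG00000160208, chromosome 21:43659560-43696079, plus strand) had 99.4, 111 and 135 CPM in CMR cells against 108, 110.4 and 104 CPM in control cells. The RRP1B groups overlapped, and its interval was -0.19 to 0.39 (edgeR adjusted p = 0.553). NOP53, a large-subunit assembly factor, averaged 50.1 ± 2.69 CPM in CMR cells and 34.9 ± 3.10 CPM in control cells (SD, n = 3 each; log2 fold change 0.52, edgeR adjusted p = 0.00827). NOP2, an rRNA methyltransferase long used as a proliferation antigen, had 69.98, 121 and 123 CPM in CMR cells against 106, 109 and 104 CPM in control cells. CMR replicate 1 lay below the controls and the other CMR libraries above them: the log2 fold change was -0.02 ± 0.21 over all libraries (95% interval -0.50 to 0.47), and 0.20 without that library (edgeR adjusted p = 0.0669). NOP16 and RRP15, both large-subunit assembly proteins, had log2 fold changes of 0.03 and 0.06, with edgeR adjusted p = 0.764 and 0.705. HIGD2A has counts equal to 40.7% of those of NOP16, but overlaps it only from position 176388751 to 176388762. AC006064, on the same strand as NOP2 and over nearly all of its span, has counts equal to 12.9% of those of NOP2. RRP8, a methyltransferase that acts on large-subunit rRNA and on chromatin at rRNA genes, was the least abundant. It averaged 3.4 ± 0.444 FPKM in CMR cells and 2.5 ± 0.210 FPKM in control cells (SD, n = 3 each). RRP8 was called higher (log2 fold change 0.52, edgeR adjusted p = 0.0231). That call was lost in 4 fits that left out 1 library, with upper-quartile factors and with limma.

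Ratios between partners of a complex or family, taken within each library, did not overlap between the groups. The ratio of POLR1B to POLR1A in FPKM was 2.003, 2.08 and 2.48 in CMR libraries against 0.749, 0.748 and 0.738 in control libraries. For NOP58 over NOP56 the ratio was 2.64, 2.99 and 3.95 in CMR libraries against 1.26, 1.24 and 1.299 in control libraries. PES1 over BOP1 was 2.92, 3.29 and 3.63 in CMR libraries against 1.13, 1.25 and 1.02 in control libraries. These ratios differ between the groups by 2.93, 2.49 and 2.89-fold, and no scaling between libraries enters them. GAR1 over NOP10 was 0.261, 0.375 and 0.442 in CMR libraries against 0.140, 0.152 and 0.145 in control libraries (2.41-fold), and RRP1B over RRP1 was 1.96, 2.40 and 2.96 against 1.54, 1.57 and 1.56 (1.54-fold). Each of the 5 pairs had p = 0.1 in an exact two-sided permutation test, adjusted p = 0.1 over the 5, and 0.1 is the smallest that 3 against 3 libraries allow. The pairs were chosen with the gene results known, so the ratios are a description. They compare RNA of single genes, and the amounts of the proteins or complexes were not measured.

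**Figure D3:**
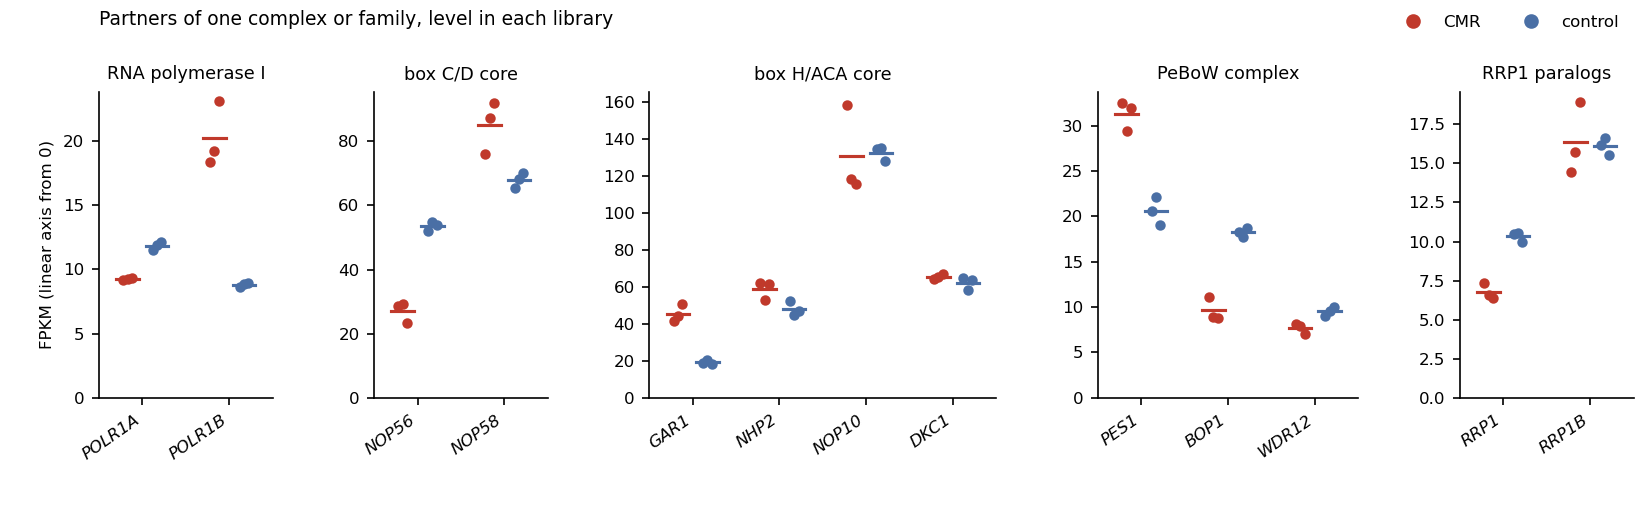
Points are the FPKM of single libraries (vertical axes, linear from 0, 1 scale per panel) for proteins of the same complex or family, CMR left of control, with a bar at each group mean. POLR1A, NOP56, BOP1 and RRP1 lie lower with CMR, while POLR1B, NOP58, GAR1 and PES1 lie higher.

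The rest of the pathway was taken as 142 genes in 6 lists, of which 71 were higher, 13 lower and 58 not called, with a median log2 fold change of 0.42. The called share, 59.2%, was near the 56.7% of well-expressed genes and above the 38.6% of all genes tested. The higher share was 50.0%, against 32.5% of well-expressed genes and 20.5% of all genes tested. Among 41 other small-subunit factors 22 were higher and 1 lower (median 0.44), and among 53 other large-subunit factors 32 were higher and 3 lower (median 0.48). With upper-quartile factors these became 19 and 4 (median 0.31), and 25 and 7 (median 0.35). With TMM factors the called shares were 56.1% and 66.0%, against 56.7% of well-expressed genes and 38.6% of all genes tested. The higher shares were 53.7% and 60.4%, against 32.5% and 20.5%. Both lists leaned higher under either scaling, so the contrast between subunits among the genes above did not extend to them. WDR36, a UtpB protein, averaged 164 ± 36.3 CPM in CMR cells and 57.7 ± 3.15 CPM in control cells (SD, n = 3 each; 2.84-fold higher, edgeR adjusted p = 0.000614). UTP25, a processome protein, was higher by 1.27 and RIOK2, a kinase of late small-subunit maturation, by 1.20 on the log2 scale (edgeR adjusted p = 0.000761 and 0.00193). On the large-subunit side, ZNF622, a cytoplasmic maturation factor, rose by 1.85, RSL24D1, a ribosomal-protein-like placeholder, by 1.65, and DDX50, a nucleolar helicase, by 1.31 on the log2 scale (edgeR adjusted p = 0.000207, 6.57e-05 and 0.000692).

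The other genes of Pol I transcription, polymerase subunits included, were split. Of 13, 6 were higher and 3 lower, and their median (-0.16) and mean (0.07) log2 fold changes differ in sign. The called share was 69.2%, against 38.6% of all genes tested and 56.7% of well-expressed genes. UBTF, which binds and bends the rRNA gene promoter, had 68.3, 57.8 and 44.4 CPM in CMR cells against 202, 198 and 199 CPM in control cells. Every CMR library was far below the controls, and the log2 fold change was -1.81 ± 0.16 (SE; 3.52-fold lower, edgeR adjusted p = 0.000251). TAF1A, a subunit of the selectivity factor that recruits Pol I, had 24.1, 31.0 and 37.0 CPM in CMR cells against 6.52, 8.98 and 9.14 CPM in control cells, the opposite direction (log2 fold change 1.90 ± 0.21, edgeR adjusted p = 0.000645). POLR1C, a subunit shared with Pol III, was called higher (log2 fold change 0.78, edgeR adjusted p = 0.00324), but the overlapping XPO5 has 366% of its counts, so its value is uncertain.

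Exosome subunits and rRNA nucleases had no common direction, with 5 of 16 higher and 4 lower. The called share was 56.2%, against 38.6% of all genes tested and 56.7% of well-expressed genes. Their median was 0.08, which turned to -0.05 with upper-quartile factors. DIS3, a nuclease of the exosome, averaged 263 ± 52.4 CPM in CMR cells and 87.6 ± 11.2 CPM in control cells (SD, n = 3 each; log2 fold change 1.58, edgeR adjusted p = 0.000568). BORA, which overlaps DIS3, has counts equal to 17.9% of those of DIS3. ISG20L2, an exonuclease of rRNA processing, had 90.9, 61.8 and 149 CPM in CMR cells against 38.3, 40.3 and 34.9 CPM in control cells, higher in all CMR libraries but widely spread (log2 fold change 1.41 ± 0.29, edgeR adjusted p = 0.00833). EXOSC1, a cap subunit of the exosome, was higher by 0.79 (edgeR adjusted p = 0.00331). The 4 lower were MPHOSPH6 (-0.77), EXOSC2 (-0.71), EXOSC9 (-0.71) and EXOSC10 (-0.52), as log2 fold changes. The EXOSC2 and EXOSC9 calls were each lost in 3 fits that left out 1 library. CCNA2, which overlaps EXOSC9, has counts equal to 211% of those of EXOSC9. Of 10 snoRNP assembly factors 4 were higher and 2 lower (60.0% called, median 0.38). The 60.0% compares with 38.6% of all genes tested and 56.7% of well-expressed genes. The 2 lower were RUVBL2 and RUVBL1, at -0.57 and -0.28 on the log2 scale (edgeR adjusted p = 0.0012 and 0.0235). The RUVBL1 call was lost in 4 fits that left out 1 library, and the overlapping SEC61A1 has 430% of its counts. SHQ1, a chaperone of dyskerin, was higher by 0.81, and ZNHIT3 and PIH1D1, of the box C/D assembly machinery, by 0.78 and 0.73 on the log2 scale (edgeR adjusted p = 0.0145, 0.00211 and 0.00498). Overlapping neighbours hold 287% of the counts of ZNHIT3 and 25.0% of those of PIH1D1.

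In the list of MAX and related transcription factors, 2 of 9 genes were called, both higher. That is 22.2%, below the 38.6% called over all genes tested, and the list's median log2 fold change of 0.75 is the value of MXD1, which was not called and whose groups overlapped. MYC, named here after its values were seen, had 107, 86.3 and 85.3 CPM in CMR cells against 69.9, 67.6 and 26.1 CPM in control cells. It was not called (log2 fold change 0.77 ± 0.34, SE, edgeR adjusted p = 0.122), with control replicate 3 well below the other control libraries. MAX itself, the shared partner, had 89.5, 107 and 121 CPM in CMR cells against 23.5, 25.1 and 23.6 CPM in control cells. The groups were far apart, with a log2 fold change of 2.14 ± 0.13 (SE; 4.40-fold, edgeR adjusted p = 8.19e-05); FNTB, which overlaps MAX, has 28.6% of its counts. MNT, a MAX partner that represses transcription, averaged 61.6 ± 6.81 CPM in CMR cells and 23.5 ± 2.56 CPM in control cells (SD, n = 3 each; log2 fold change 1.39, edgeR adjusted p = 0.000345).

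**Figure D4:**
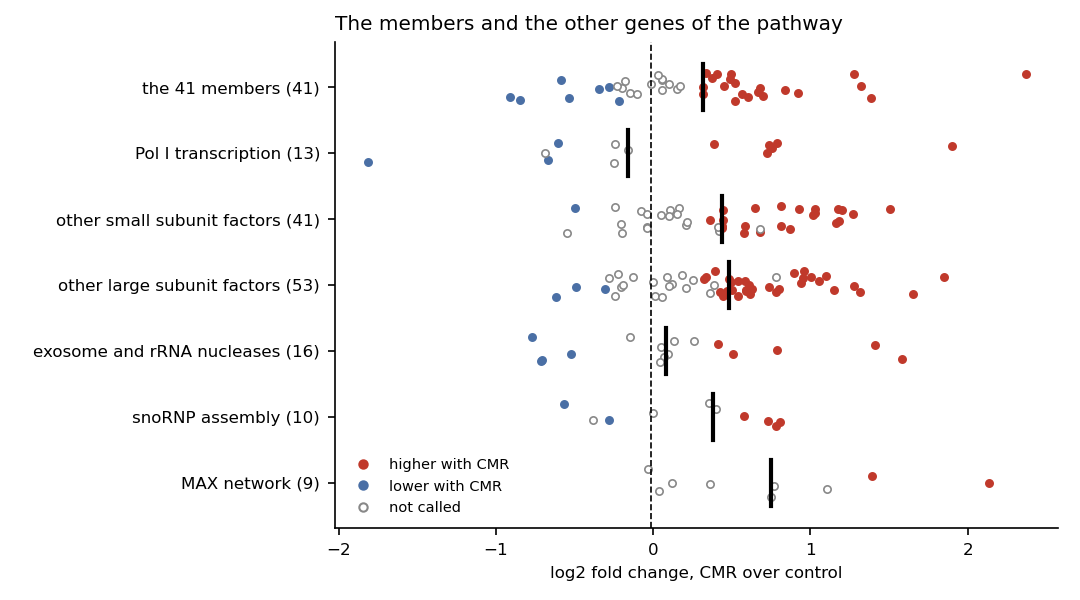
Each point is a gene, placed by its log2 fold change (CMR over control) and coloured by its edgeR call, for the 41 genes and the 6 other lists; thick bars mark list medians and the dashed line the median of all genes tested. The other small- and large-subunit lists have medians of 0.44 and 0.48, and UBTF lies lowest of all at -1.81.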

How the data were processed

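RNA-seq of PANC-1 cells, 3 CMR and 3 control libraries, was analysed from the gene table the authors deposited, which holds a read count and an FPKM value per gene and library, per the file headers. The submitters' processing notes name Bowtie 0.12.2, HISAT2 2.0, StringTie 1.3.0 and the mouse build mm8. The identifiers are human: 58552 of 58825 are in GENCODE 29, 81.2% with the same coordinates, so coordinates are given as GRCh38. Strandedness is not stated in the sources used here, so reads of overlapping genes may be assigned to either. The authors' FPKM columns list 0.0001 where the count is 0.

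Libraries were grouped by their labels. Counts were fitted with edgeR 4.0.16 (quasi-likelihood, TMM, filterByExpr with minimum count 10 and minimum total 15, group only), adjusting p-values by Benjamini-Hochberg over 19200 genes. A gene was called at adjusted p under 0.05. Scripts were tested on simulated data. Alternatives used DESeq2 1.42.0, limma 3.58.1 on log2(FPKM + 1) and log2(FPKM + 0.1), other scaling factors, other filters, a replicate block, thinned counts and leaving out each library.

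The genes, lists and role groups were chosen with earlier results of these data known. Among the 41 genes, values per library are given for the 8 called with the largest rise, all 7 called lower (the rule allows up to 8), the 3 most abundant, the nearest to no change in each role group of 3 or more, and paralogs; NOP58 and GNL3 were added after their values were seen. Up to 3 called genes per other list, those changed most, are named. The exosome and snoRNP assembly genes called lower were added after their values were seen. Figures were drawn with matplotlib 3.10.9.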

Additional observations from a re-analysis of the deposited data

How the results depend on the processing

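No called gene among the 41 changed sign under any of the 16 alternatives. With upper-quartile factors 13 of the 41 genes were called higher and 11 lower, and their median log2 fold change was 0.19, against 0.24 with library totals, 0.24 with limma on log2(FPKM + 0.1) and 0.23 with limma on log2(FPKM + 1). Leaving out 1 library gave 13 to 19 genes higher, 4 to 7 lower and a median of 0.23 to 0.33; 13 was reached without control replicate 2 and 4 without control replicate 1. Signs turned only in genes that were not called. With library totals, limma at + 0.1, limma at + 1 and upper-quartile factors, in that order, NOP10 had -0.013, -0.033, -0.033 and -0.0715, NPM1 -0.018, -0.023, -0.023 and -0.074, RRP15 -0.016, -0.024, -0.0215 and -0.072, and NOP16 -0.039, -0.043, -0.041 and -0.096. NOP16 had -0.0093 after the filter at a mean of 1 FPKM, and RRP1B had -0.029 with upper-quartile factors. Leaving out 1 library gave ranges of -0.093 to 0.12 for NOP10, -0.18 to 0.05 for BYSL, -0.034 to 0.19 for RRP1B and -0.15 to 0.20 for NOP2. The cause was not tested. Over all genes, 5660 to 8302 were called across alternatives.

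Deviations of CMR and control libraries with the same replicate number correlated at 0.034 to 0.052, and those with different numbers at -0.031 to -0.01. Each library thus correlated best with its own number, though weakly. The labels do not state a pairing, so whether the libraries are paired is not known. A replicate block gave 19 of the 41 genes higher and 6 lower, and 6737 genes called in all. Thinning each library to 51147268 counts lost none of the calls on the 41 genes.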
